A study of Solanum lycopersicum with 12 samples.

Results

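Cutin is the polyester that frames the plant cuticle, and the 6 tomato genes described here stand for its synthesis and polymerization. Each gene was taken by its ITAG locus identifier, and all 6 identifiers listed were found among the 33976 genes of the deposited table. The list joins 3 genes chosen by their known role with 3 genes taken from the study's own selection of common differentially expressed genes (DEGs) of cuticle metabolism. The genes with a known role are the cutin synthase *CD1* (Solyc11g006250), the cytochrome P450 *CYP86A69*, also called *CD3* (Solyc08g081220), and the acyltransferase *GPAT6* (Solyc09g014350). The genes from the study's selection are the GDSL esterase/lipase genes Solyc03g005900 and Solyc11g032050 and the cytochrome P450 gene Solyc01g094750.

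Leaf RNA was sequenced in 12 libraries, 4 of the edited line *slmyb60Cr1*, 4 of the edited line *slmyb60Cr2* and 4 of the wild type cultivar Red Setter. Both lines are in the Red Setter background, were free of Cas9 and carry homozygous deletions in *SlMYB60*, the gene of an R2R3 MYB transcription factor, and each genotype is a single line. Every library came from leaf discs pooled over several plants, and the labels give all 3 genotypes the same water stress, 14 days without irrigation, whereas the methods describe the sampled plants without a water deficit. Levels are given as TPM, a transcript abundance scaled for length and to the same sum in every library, which therefore carries no read depth. *SlMYB60* (Solyc10g081490) had 1.57, 2.10, 2.78 and 2.30 TPM in *slmyb60Cr1*, 2.19, 2.61, 3.15 and 2.87 TPM in *slmyb60Cr2*, and 12.9, 12.3, 19.3 and 21.6 TPM in the wild type (replicates 1 to 4), so that all edited libraries lay below all wild type libraries, in the direction of the labels. Loss of the deleted stretch and a lower transcript level cannot be told apart in this value.

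Cutin is built in epidermal cells from hydroxylated fatty acids. Cytochrome P450 enzymes of the CYP86A family add a hydroxyl group to the end of the fatty acid chain, glycerol-3-phosphate acyltransferases such as GPAT6 place the hydroxylated acyl group on glycerol, and the resulting monoacylglycerol is exported to the cell surface. There, GDSL-type acyltransferases such as the cutin synthase CD1 join the monomers into the polymer. Tomato plants without CD1, CD3 or GPAT6 are known for fruit with little cutin. In whole leaves, fewer epidermal cells and less RNA per epidermal cell cannot be told apart.

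The 6 genes fell into distinct patterns. *GPAT6*, *CYP86A69* and *CD1* varied several-fold among libraries of the same genotype and did so together, and none of the 3 passed the test between an edited line and the wild type. The 3 genes from the study's selection varied less within a genotype. They were also lower in every edited library than in every wild type library, which is what they had been selected for. Selection by an adjusted p also favours genes that vary little within a genotype.

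**Figure D1:**
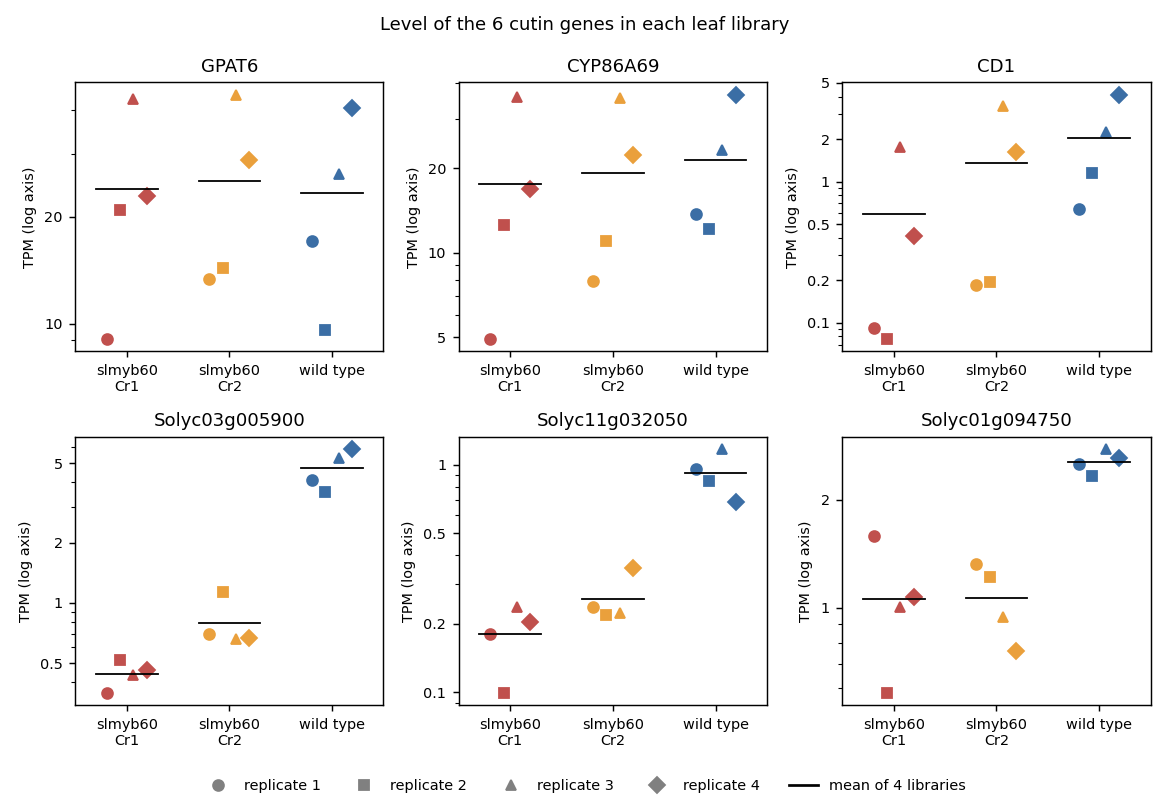
TPM (log axis) of the 6 genes in each of the 12 libraries, by genotype, with a marker for each replicate number and a line at the mean of 4 libraries. The upper genes overlap between genotypes and spread widely within them, with *CD1* between 0.0766 and 4.14 TPM; the lower genes have every edited library below every wild type library.

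*GPAT6*, which provides the acylglycerol monomer, was the most abundant of the 6 in every genotype. It had 9.05, 20.9, 42.8 and 22.8 TPM in *slmyb60Cr1*, 13.3, 14.4, 44.2 and 28.9 TPM in *slmyb60Cr2*, and 17.0, 9.60, 26.4 and 40.4 TPM in the wild type (replicates 1 to 4). The ranges overlapped over most of their width, and the highest library of each edited line lay above the highest of the wild type. The means were 23.9 ± 14.0 TPM in *slmyb60Cr1*, 25.2 ± 14.5 TPM in *slmyb60Cr2* and 23.4 ± 13.3 TPM in the wild type (SD, n = 4 each). The log2 fold change was 0.02 in *slmyb60Cr1* (95% confidence interval −1.20 to 1.24, limma adjusted p = 0.991) and 0.12 in *slmyb60Cr2* (−1.10 to 1.34, limma adjusted p = 0.932). All fold changes are on the log2(TPM + 0.1) scale and come from a limma fit of the 12 libraries over 21218 genes with Benjamini-Hochberg adjustment. To be called, a gene had to change by more than 1 on this scale, up or down, with its adjusted p under 0.05. The interval leaves room for a rise or a fall of about the size of the calling threshold in either line.

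*CYP86A69*, the omega-hydroxylase whose loss gives the *cutin deficient 3* mutant, was next in abundance. It had 4.93, 12.5, 35.8 and 16.9 TPM in *slmyb60Cr1*, 7.91, 11.0, 35.4 and 22.3 TPM in *slmyb60Cr2*, and 13.7, 12.2, 23.2 and 36.5 TPM in the wild type (replicates 1 to 4). No edited library lay above the highest wild type library, while 1 library of *slmyb60Cr1* and 2 of *slmyb60Cr2* lay below the lowest. The means were 81.9% of the wild type mean in *slmyb60Cr1* and 89.5% of it in *slmyb60Cr2*. Neither log2 fold change, −0.48 (95% confidence interval −1.83 to 0.88, limma adjusted p = 0.759) and −0.26 (−1.62 to 1.10, limma adjusted p = 0.854), passed the test.

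*CD1*, the cutin synthase, had a low level in these leaves and reached 0.5 TPM in 7 of the 12 libraries. It had 0.0924, 0.0766, 1.76 and 0.409 TPM in *slmyb60Cr1*, 0.184, 0.193, 3.45 and 1.63 TPM in *slmyb60Cr2*, and 0.639, 1.14, 2.23 and 4.14 TPM in the wild type (replicates 1 to 4). In *slmyb60Cr1*, 3 of the 4 libraries lay below the lowest wild type library, and in *slmyb60Cr2* 2 of the 4 did. The means were 0.586 ± 0.801 TPM in *slmyb60Cr1*, 1.36 ± 1.55 TPM in *slmyb60Cr2* and 2.04 ± 1.55 TPM in the wild type (SD, n = 4 each), so that the SD was larger than the mean in both edited lines. *CD1* had the largest difference of the 3 genes with a known role, with a log2 fold change of −2.03 in *slmyb60Cr1* (95% confidence interval −4.20 to 0.13, limma adjusted p = 0.327) and −1.04 in *slmyb60Cr2* (−3.20 to 1.13, limma adjusted p = 0.588), and it did not pass the test in either line. With a pseudocount of 1 in place of 0.1, its log2 fold change was −0.92 in *slmyb60Cr1* and −0.45 in *slmyb60Cr2*.

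With genotype as the only factor, none of these 3 genes was called in either line by limma (0 of 3), and 0 of 3 had an unadjusted p below 0.05. That depends on the fit for *CD1* in *slmyb60Cr1*. With the replicate number added as a block, its interval was −3.10 to −0.97 (limma unadjusted p = 0.00213, adjusted p = 0.0565), still not called. Among all genes tested, 0.669% were called in *slmyb60Cr1* and 1.4% in *slmyb60Cr2*. A further 10 identifiers had been listed for other steps of cutin synthesis, for which the sources used here give no names. All 10 were tested and 0 were called in either line, with log2 fold changes between −1.01 and 0.32 (median −0.13) in *slmyb60Cr1* and between −1.12 and 0.33 (median −0.33) in *slmyb60Cr2*. The medians over all genes tested were −0.02 and 0.04. At an unadjusted p below 0.05, 0 of the 10 passed in *slmyb60Cr1* and 2 in *slmyb60Cr2*. The share of all genes tested below an unadjusted p of 0.05 was not counted, so these counts have no background beside them. At a limma adjusted p below 0.05 alone, 0 of the 10 passed in either line. Among all genes tested, 1.69% did so in *slmyb60Cr1* and 7.41% in *slmyb60Cr2*. With the replicate number as a block, 0 of the 10 passed this limit in *slmyb60Cr1* and 2 in *slmyb60Cr2*, none past the fold threshold. The shares of all genes tested in that fit were 3.28% and 10.9%.

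The GDSL esterase/lipase gene Solyc03g005900 encodes a member of the enzyme family that also holds CD1. It had 0.353, 0.520, 0.438 and 0.461 TPM in *slmyb60Cr1*, 0.699, 1.13, 0.662 and 0.664 TPM in *slmyb60Cr2*, and 4.11, 3.57, 5.29 and 5.89 TPM in the wild type (replicates 1 to 4). Its mean was 9.39% of the wild type mean in *slmyb60Cr1* and 16.7% in *slmyb60Cr2*, the smallest share among the 6 genes in either line. This was a log2 fold change of −3.13 in *slmyb60Cr1* and of −2.44 in *slmyb60Cr2*, each with a standard error of 0.22. The study chose this gene, and the other 2 of its selection, from these libraries by an adjusted p and a log2 fold change past 1 in both lines, so these values are a description and no test is given for them.

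The other GDSL esterase/lipase gene, Solyc11g032050, was the least abundant of the 6 in every genotype. It had 0.179, 0.0990, 0.237 and 0.205 TPM in *slmyb60Cr1*, 0.236, 0.218, 0.224 and 0.352 TPM in *slmyb60Cr2*, and 0.956, 0.849, 1.18 and 0.684 TPM in the wild type (replicates 1 to 4). Only its 4 wild type libraries reached 0.5 TPM, so that it entered the fit through the group in which it is high. It was lower by a log2 fold change of −1.86 in *slmyb60Cr1* and −1.50 in *slmyb60Cr2*, each with a standard error of 0.28. At this level the pseudocount matters, and the same values were −0.69 and −0.60 with a pseudocount of 1 and −2.32 and −1.79 with one of 0.01.

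The cytochrome P450 gene Solyc01g094750, whose substrate the sources used here do not give, had 1.59, 0.579, 1.01 and 1.08 TPM in *slmyb60Cr1*, 1.33, 1.22, 0.946 and 0.762 TPM in *slmyb60Cr2*, and 2.51, 2.32, 2.77 and 2.61 TPM in the wild type (replicates 1 to 4). Its wild type libraries were the most even of all 6 genes, with the highest 1.19 times the lowest, against 2.74 times in *slmyb60Cr1* and 1.74 times in *slmyb60Cr2*. The means of both lines were close to each other, at 41.6% of the wild type mean in *slmyb60Cr1* and 41.7% in *slmyb60Cr2*. Its log2 fold change, −1.26 in *slmyb60Cr1* and −1.21 in *slmyb60Cr2* with a standard error of 0.26 each, was the nearest to the threshold of 1 among the 3 selected genes, and with a pseudocount of 1 it was −0.81 and −0.79. In all 3 selected genes the 8 edited libraries lay below the 4 wild type libraries, as they did in 2.22% of all genes tested.

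**Figure D2:**
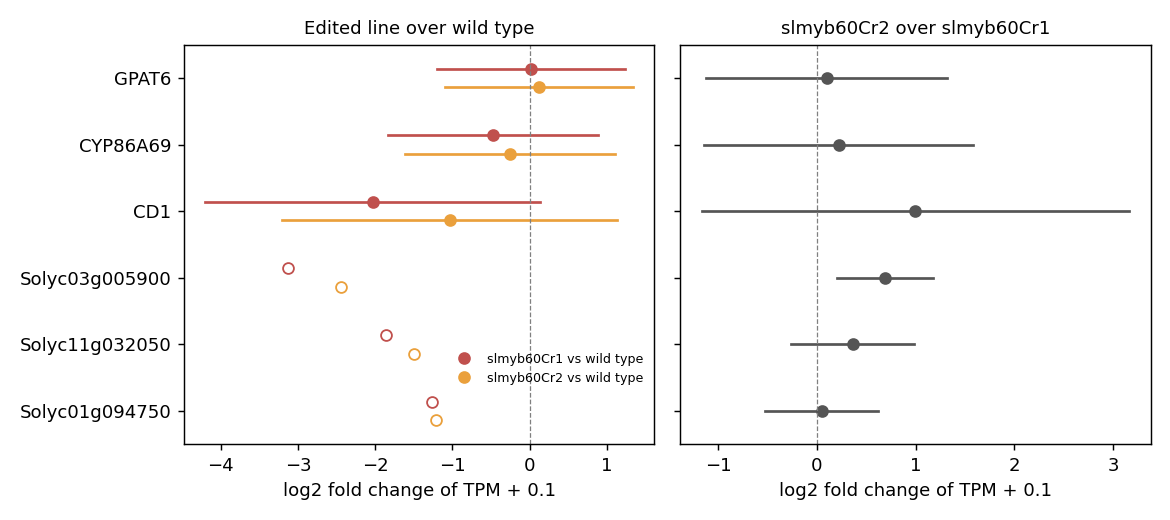
Log2 fold changes on the log2(TPM + 0.1) scale, for each edited line over the wild type (left) and for *slmyb60Cr2* over *slmyb60Cr1* (right). Bars are 95% confidence intervals from limma with genotype as the only factor, and open points without bars are the genes the study selected on the same comparison. In this fit the intervals of *GPAT6*, *CYP86A69* and *CD1* include 0 in every comparison, and that of Solyc03g005900 between the lines runs from 0.20 to 1.18.

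The comparison between the edited lines was not itself used to choose any of the 6 genes. Here 0 of 6 were called by limma, against 0.151% of all genes tested. The 3 selected genes had, however, to pass in both lines against the same wild type. That choice favours lines that are alike and a small spread. Their likeness between the lines and their narrow intervals cannot be separated from it. Among all 6 genes, only Solyc03g005900 had an unadjusted p below 0.05 (1 of 6), a limit for which the share of all genes tested was not counted. It was higher in *slmyb60Cr2* than in *slmyb60Cr1* by 0.69 on the log2 scale (95% confidence interval 0.20 to 1.18, limma adjusted p = 0.181), and the 4 libraries of *slmyb60Cr2* all lay above the 4 of *slmyb60Cr1*. The share of all genes tested with such a separation was not counted. Its *slmyb60Cr1* libraries were low, from 0.353 to 0.520 TPM, and with a pseudocount of 1 the difference was 0.30 (limma adjusted p = 0.340). *CD1* averaged 1.00 higher in *slmyb60Cr2* (−1.17 to 3.16, limma adjusted p = 0.680), with overlapping libraries. That difference was 0.31 without replicate 3 of *slmyb60Cr2* and 1.71 without replicate 3 of *slmyb60Cr1*, and it did not pass the test in either case. For Solyc11g032050 the difference was 0.36 (−0.26 to 0.99, limma adjusted p = 0.590), with all 8 libraries compared under 0.5 TPM, and it was 0.09 with a pseudocount of 1. This gene entered the fit only through the wild type. In a fit of the edited lines alone, neither it nor *CD1* met the TPM limit, so neither was tested there. The difference was for *CYP86A69* 0.22 (−1.14 to 1.58, limma adjusted p = 0.905) and for *GPAT6* 0.10 (−1.12 to 1.32, limma adjusted p = 0.954). Of the intervals that included 0, that of Solyc01g094750 was the narrowest, with a difference of 0.05 (−0.53 to 0.62, limma adjusted p = 0.953).

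The order of the mean levels differed between the 3 genotypes below *CYP86A69*. TPM is scaled for length, so genes can be set side by side. In *slmyb60Cr1* the mean TPM ran from *GPAT6* (23.9) and *CYP86A69* (17.5) through Solyc01g094750 (1.06), *CD1* (0.586) and Solyc03g005900 (0.443) to Solyc11g032050 (0.180), and in *slmyb60Cr2* from *GPAT6* (25.2) and *CYP86A69* (19.2) through *CD1* (1.36), Solyc01g094750 (1.06) and Solyc03g005900 (0.790) to Solyc11g032050 (0.257). In the wild type it ran from *GPAT6* (23.4) and *CYP86A69* (21.4) through Solyc03g005900 (4.72), Solyc01g094750 (2.55) and *CD1* (2.04) to Solyc11g032050 (0.916). The libraries of *GPAT6* and *CYP86A69* overlapped in every genotype, while *CYP86A69* stood clear of the next gene in every genotype. Below it, *CD1* overlapped with its neighbours in each order. Solyc03g005900 stood clear of Solyc11g032050 in both edited lines and of Solyc01g094750 in the wild type.

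The spread within a genotype was wider for *GPAT6*, *CYP86A69* and *CD1* than for the selected genes. Their highest library was 4.73, 7.27 and 23.0 times the lowest in *slmyb60Cr1*, 3.32, 4.48 and 18.8 times in *slmyb60Cr2* and 4.21, 3.00 and 6.48 times in the wild type. For Solyc03g005900, Solyc11g032050 and Solyc01g094750 the same ratio was 1.47, 2.39 and 2.74 in *slmyb60Cr1*, 1.71, 1.62 and 1.74 in *slmyb60Cr2* and 1.65, 1.72 and 1.19 in the wild type. The highest of these, 2.74, is close to the 3.00 of *CYP86A69* in the wild type. In all 3 genes with a known role, replicates 3 and 4 lay above replicates 1 and 2 in every genotype, and this also held for *SlMYB60* and for 4.22% of all genes tested. It held for none of the 3 selected genes (0 of 3). The selected genes were chosen in the same libraries by an adjusted p, which favours a small spread within a genotype. Their narrower spread and the absence of this pattern cannot be separated from that choice. Between libraries of different genotypes, the correlation r averaged 0.19 for pairs with the same replicate number and −0.06 for other pairs. Each library was compared with the 4 libraries of each other genotype. It correlated best with its own number in 11 of 24 such comparisons. In both other genotypes at once, 4 of 12 libraries did so. The labels do not say that a replicate number marks a shared batch, and what the libraries with the same number share was not tested.

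**Figure D3:**
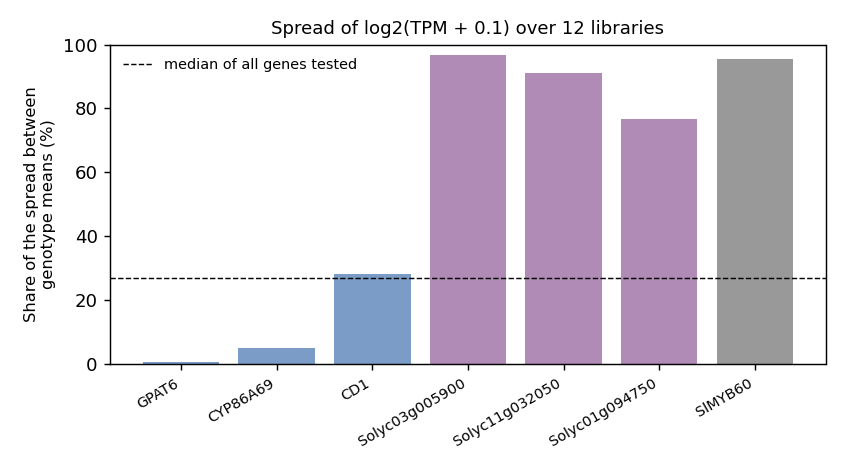
Share of the spread of log2(TPM + 0.1) over 12 libraries (sum of squares, %) that lies between the 3 genotype means, for each gene and as the median of all genes tested (dashed line, 27.0%). The share is 0.468% for *GPAT6* and 96.6% for Solyc03g005900, which was selected for a difference between genotypes.

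Of the spread of *GPAT6* over the 12 libraries, 0.468% lay between the genotype means, and the share was 5.06% for *CYP86A69* and 28.0% for *CD1*, beside a median of 27.0% over all genes tested. It was 96.6% for Solyc03g005900, 91.2% for Solyc11g032050 and 76.8% for Solyc01g094750, genes chosen for such a difference, and 95.3% for the edited gene *SlMYB60*. In the fit with the replicate number as a block, the replicate number itself was also tested. Its limma adjusted p was 0.0449 for *CD1*, 0.04999 for *CYP86A69* and 0.0841 for *GPAT6*. The values of *CD1* and *CYP86A69* lay just under 0.05, a limit that 3.59% of all genes tested passed.

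Within genotypes the 3 genes with a known role followed each other. Over the 12 deviations of log2(TPM + 0.1) from the genotype means, Pearson's r was 0.97 between *GPAT6* and *CYP86A69*, 0.91 between *CYP86A69* and *CD1* and 0.86 between *GPAT6* and *CD1*. *SlMYB60* deviated in the same direction, with r of 0.93 to *GPAT6*, 0.92 to *CYP86A69* and 0.80 to *CD1*, with means of 13.2% of the wild type mean in *slmyb60Cr1* and 16.4% in *slmyb60Cr2*. Solyc03g005900 was less alike, with r of 0.29 to *GPAT6*, 0.23 to *CYP86A69* and −0.06 to *CD1*. Solyc01g094750 had r of −0.39 to *GPAT6* and −0.43 to *CYP86A69*, and −0.04 to Solyc03g005900. Both GDSL genes had r of −0.32 to each other within genotypes, and 0.92 over all 12 libraries, where the difference they were selected for enters. The deviations share libraries, replicate numbers and 3 genotype means, and these values describe the 12 libraries only. In *SlMYB60* and the 3 genes with a known role, replicates 3 and 4 lay above replicates 1 and 2 in every genotype. This pattern, also present in 4.22% of all genes tested, by itself raises the r between them. The r usual between genes tested was not computed.

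**Figure D4:**
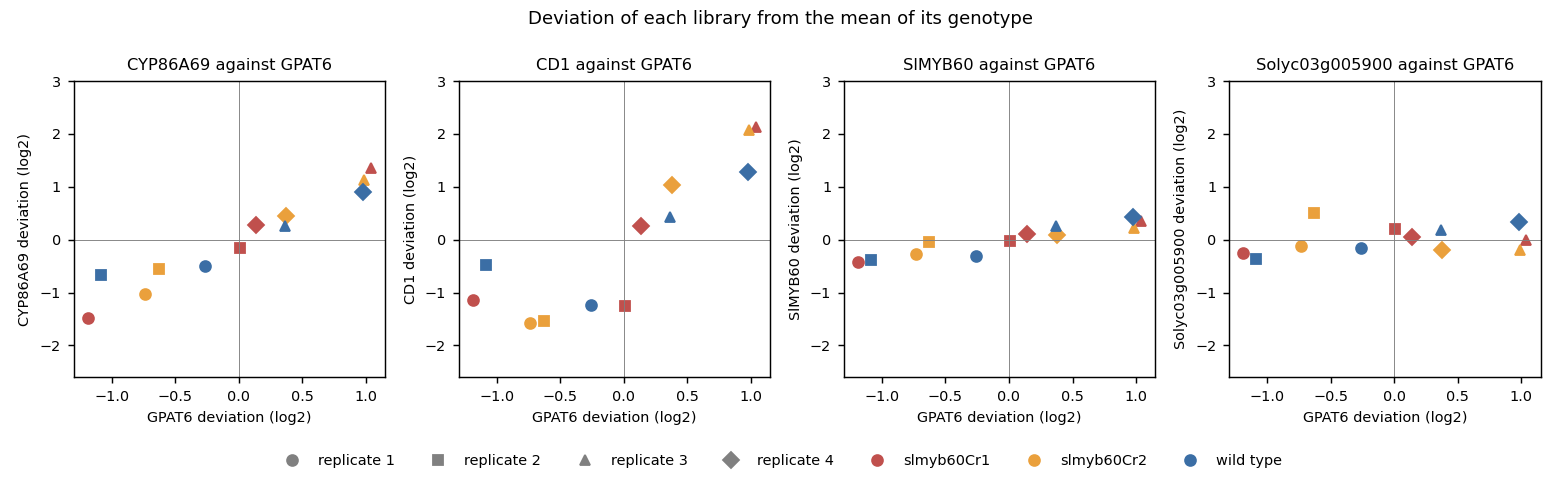
Deviation of each of the 12 libraries from the mean of its genotype, in log2(TPM + 0.1), for *GPAT6* (x axis) against *CYP86A69*, *CD1*, *SlMYB60* and Solyc03g005900 (y axes), with genotype by colour and replicate number by marker. *CYP86A69* and *SlMYB60* follow *GPAT6* closely (r of 0.97 and 0.93), *SlMYB60* over a narrower range, and Solyc03g005900 does not (r of 0.29).

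The gene most like each member was sought among all genes tested by Pearson's r of log2(TPM + 0.1) over the 12 libraries. For Solyc03g005900 it was *SlMYB60* (r of 0.97), followed by Solyc06g008030 (0.96). For Solyc11g032050 it was Solyc03g034190 (0.94), followed by *SlMYB60* (0.94). Both GDSL genes and *SlMYB60* have in common that the edited libraries are low, which by itself gives a high r, and over the deviations within genotypes the r to *SlMYB60* was 0.52 for Solyc03g005900 and 0.12 for Solyc11g032050. For Solyc01g094750 the nearest were Solyc06g005570 (0.91) and Solyc06g071500 (0.90), with 0.82 and 0.47 over the deviations within genotypes. The study lists Solyc06g071500 as a transporter gene among its common DEGs, lower in both lines. It was thus selected by the same rule and in the same direction as Solyc01g094750, which by itself raises their r. *GPAT6* was nearest to Solyc12g014270 (0.98) and Solyc01g091050 (0.97), *CYP86A69* to Solyc09g009010 (0.98) and Solyc07g066150 (0.97), and *CD1* to Solyc11g044530 (0.96) and Solyc06g060340 (0.96), identifiers that the sources used here do not name. Over the deviations within genotypes these last 6 values lay between 0.94 and 0.99, so that they do not rest on a difference between genotypes.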

How the data were processed

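The 12 leaf libraries were assigned to genotypes by their labels. The authors trimmed reads with fastp, quantified them against ITAG 4.0 with Salmon, with corrections for GC and sequence bias, and deposited TPM for each gene and library, each column summing to 1000000. Program versions are not given in the sources used here. TPM keeps no depth, so no count test was run and no counting interval was computed. In R 4.3.3, limma 3.58.1 with an intensity trend was fitted to log2(TPM + 0.1) of the 21218 genes that reached 0.5 TPM in 4 or more libraries, with genotype as the only factor, and p values were adjusted by Benjamini-Hochberg over all of them. All 6 members passed this limit. The scripts were tested on simulated data, and figures were drawn with matplotlib 3.10.9.

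The members and lists were chosen with earlier results of these data known. Named are the 6 members, *SlMYB60*, the 2 genes most like each member and, as counts, 10 further identifiers. RefSeq (SLM_r2.1) lists symbols but does not pair them with the identifiers of the table, so product names, sequences and positions were not used here, and the identifiers set aside as tissue markers could not be named. The leaf label was therefore not checked against markers. No 2 libraries held identical values. Alternatives covered the block, the pseudocount, the TPM limit, the scaling, the trend, the libraries in the fit and each library left out.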

Additional observations from a re-analysis of the deposited data

Results flagged for a closer look

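In groups of 4 libraries, 2 values of the selected genes stood apart from the rest of their group by Dixon's criterion for 4 samples, among 21 groups examined, and chance gives about 1 in 20. Solyc03g005900 was at 1.13 TPM in replicate 2 of *slmyb60Cr2*, still below every wild type library. Solyc11g032050 was at 0.352 TPM in replicate 4 of the same line, also below every wild type library.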

How the results depend on the processing

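With the replicate number as a block, the limma adjusted p of *CD1* against the wild type was 0.0565 in *slmyb60Cr1* and 0.190 in *slmyb60Cr2*. All 4 same-numbered differences were below 0 in *slmyb60Cr1* and 3 of 4 in *slmyb60Cr2*. No call of a gene described here changed, but 52 genes were called between the lines. Of the 10 other cutin identifiers, 2 in *slmyb60Cr1* and 4 in *slmyb60Cr2* then had an unadjusted p below 0.05, and none was called. The replicate number held 61.4% of the spread of *CD1*, 78.1% of *CYP86A69* and 75.2% of *GPAT6* (median of all genes tested 28.1%). Numbers paired libraries in part, with r over 0.1 in 8 of 12 same-numbered pairs (from −0.05 to 0.44). With a pseudocount of 1, log2 fold changes in *slmyb60Cr1* and *slmyb60Cr2* were −1.97 and −1.66 for Solyc03g005900, −0.69 and −0.60 for Solyc11g032050 and −0.81 and −0.79 for Solyc01g094750, and 197 genes were called in *slmyb60Cr2*. With one of 0.01, Solyc11g032050 was at −2.32 and −1.79. *CD1* was then at −2.51 and −1.24. Fitting the 2 genotypes of a comparison alone, 88 genes were called in *slmyb60Cr1* and 9 between the lines. Median-of-ratios scaling turned the difference of Solyc01g094750 between the lines to −0.0054.

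Leaving out 1 library at a time gave 77 to 292 genes called in *slmyb60Cr1* (292 without its replicate 1, and 77 to 89 without its replicate 2, 3 or 4 or wild type replicate 2 or 4), 186 to 355 in *slmyb60Cr2* (186 to 197 without its replicate 2 or 4 or wild type replicate 2) and 7 to 35 between the lines (7 to 15 without *slmyb60Cr2* replicate 2, 3 or 4 or *slmyb60Cr1* replicate 2 or 3). Over the same fits *CD1* ran from −2.75 to −1.60 in *slmyb60Cr1* (adjusted p 0.199 to 0.525), from −1.73 to −0.51 in *slmyb60Cr2* and from 0.31 to 1.71 between the lines. *CYP86A69* ran from −0.93 to 0.016 in *slmyb60Cr1*, from −0.63 to 0.084 in *slmyb60Cr2* and from −0.27 to 0.67 between the lines, and *GPAT6* from −0.34 to 0.42, from −0.24 to 0.45 and from −0.30 to 0.45, so that the direction of neither gene held. Solyc01g094750 ran from −0.19 to 0.25 between the lines. The cause of these changes was not tested. No tested comparison of the 6 genes passed under any alternative run. Solyc11g032050 left the fit at a limit of 1 TPM and without any 1 wild type library. Both Solyc11g032050 and *CD1* left it when the edited lines were fitted alone. TPM gives no depth, and counting error at the low levels of *CD1* and Solyc11g032050 was not estimated, although the study lists the reads of each library.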

Other observations

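The following ratios were chosen after the values had been seen and were not tested. How often other pairs of genes separate the genotypes in this way was not counted. *GPAT6* over *CYP86A69*, as a ratio of TPM within a library, ran from 1.19 to 1.84 in *slmyb60Cr1* (median 1.51), from 1.25 to 1.68 in *slmyb60Cr2* (median 1.30) and from 0.789 to 1.24 in the wild type (median 1.12). All edited libraries but replicate 3 of *slmyb60Cr1* lay above the highest wild type library. The margin was narrow, with 1.246 in replicate 3 of *slmyb60Cr2* and 1.242 in replicate 1 of the wild type. Neither gene alone differed beyond its spread between libraries. *CD1* over *CYP86A69* ran from 0.00613 to 0.0492 in *slmyb60Cr1* (median 0.0215), from 0.0175 to 0.0974 in *slmyb60Cr2* (median 0.0482) and from 0.0465 to 0.113 in the wild type (median 0.0950). In *slmyb60Cr1* only replicate 3 reached the wild type range of this ratio.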
